A study of Mus musculus with 8 samples.

Results

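The genes described here are *Gata1*, *Gata2*, *Tal1*, *Lmo2*, *Klf1*, *Gfi1b*, *Itga2b*, *Pf4* and *Epor*, 9 of the 23284 gene symbols in the RNA-seq tables of this study. They were taken by name as regulators, surface markers and products of the erythroid and megakaryocytic lineages, and all 9 symbols were found in both tables. The study removed PCGF1, a subunit of the variant polycomb complex PRC1.1, from mouse hematopoietic progenitors of 2 kinds and sequenced poly(A) RNA from 2 control and 2 *Pcgf1*-KO libraries of each kind, 8 libraries in all. IdHPCs are bone marrow progenitors (Lin-Sca-1+c-kit+, LSK) that carry a vector for human ID3 and are kept in culture in this way. LMPPs are lymphoid-primed multipotent progenitors sorted from bone marrow. Both kinds were grown on TSt-4 stromal feeder cells with IL-7, SCF and Flt3-L, and every library has the strain label B6CBAF1/J. The IdHPC groups are *Pcgf1* fl/fl (control) and *Pcgf1* -/-, the latter obtained with 4-OHT for 4 days in ERT2-Cre:*Pcgf1* fl/fl cells, while no 4-OHT treatment is stated for the control IdHPCs. The LMPP groups are *Pcgf1* fl/fl without Cre (control) and ERT2-Cre:*Pcgf1* fl/fl, labelled *Pcgf1* -/-, and both were cultured with 4-OHT for 4 days. For the mice of the work as a whole, female animals of 6 to 8 weeks are stated, and no age is given for single libraries. The 2 libraries of a group are described as independent biological replicates, while no label ties them to mice or cultures.

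TAL1 is a basic helix-loop-helix factor that binds E-box motifs as a dimer with E proteins such as TCF3. In hematopoietic cells it forms a complex with the bridging proteins LMO2 and LDB1 and with GATA1 or GATA2, which bind GATA motifs, and this complex occupies genes of stem cells, erythroid cells and megakaryocytes. GATA2 is found mainly in stem cells, early progenitors and mast cells, and GATA1 takes its place as erythroid cells and megakaryocytes mature. KLF1 activates erythroid genes through CACC-type motifs, and GFI1B is a repressor needed in both lineages. *Itga2b* encodes the platelet integrin CD41, *Pf4* a chemokine of platelet granules, and *Epor* the erythropoietin receptor. In the standard view of the bone marrow, LMPPs have lost most of their erythroid and megakaryocytic potential.

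The 250 bases before the start site were read for the 8 genes that have an entry in the RefSeq promoter table (GRCm38.p6), 10 entries in all, and each was placed on mm9 (NCBIM37) by an exact and unique match. GATAA, the core of the motif bound by GATA factors, was searched on both strands (GATAA or TTATC) and stood once in each of 4 entries, against 22.6% of all 32851 promoters of this length. These 4 sequences are printed because they belong to a GATA partner and 3 genes of the erythroid program, with the motif in capitals. The *Tal1* sequence (chr4:114728781-114729030, + strand) has it 200 bases before the start site, *Klf1* (chr8:87425631-87425880, + strand) 75 bases, *Gfi1b* (chr2:28477503-28477752, - strand) 114 bases and *Epor* (chr9:21768021-21768270, - strand) 49 bases before it.
Tal1: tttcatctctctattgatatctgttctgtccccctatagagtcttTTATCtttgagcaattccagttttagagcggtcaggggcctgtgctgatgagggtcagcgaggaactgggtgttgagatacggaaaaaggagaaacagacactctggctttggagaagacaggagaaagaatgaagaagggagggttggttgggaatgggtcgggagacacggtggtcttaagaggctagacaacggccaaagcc
Klf1: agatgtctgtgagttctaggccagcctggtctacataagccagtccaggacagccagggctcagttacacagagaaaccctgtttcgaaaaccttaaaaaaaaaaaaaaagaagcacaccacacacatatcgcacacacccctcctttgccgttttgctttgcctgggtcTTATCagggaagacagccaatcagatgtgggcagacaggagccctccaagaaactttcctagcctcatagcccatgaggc
Gfi1b: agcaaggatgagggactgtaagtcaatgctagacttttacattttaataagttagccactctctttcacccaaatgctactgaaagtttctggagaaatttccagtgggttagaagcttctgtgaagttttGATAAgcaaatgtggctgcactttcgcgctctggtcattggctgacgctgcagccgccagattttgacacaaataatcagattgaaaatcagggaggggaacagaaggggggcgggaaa
Epor: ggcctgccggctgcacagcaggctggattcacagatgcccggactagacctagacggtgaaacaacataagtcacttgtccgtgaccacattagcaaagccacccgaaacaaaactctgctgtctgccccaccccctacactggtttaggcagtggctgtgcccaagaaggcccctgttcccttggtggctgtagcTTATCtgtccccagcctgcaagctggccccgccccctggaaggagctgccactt
The second *Tal1* entry and the entries of *Gata1*, *Gata2*, *Itga2b* and *Pf4* had no GATAA in this window. The E-box form CAGNTG (either strand) stood in 4 of the 10 entries, those of *Klf1*, *Itga2b*, *Pf4* and *Epor*, against 44.8% of all promoters. The CACC-type form CCNCNCCC (either strand) stood in 7 of them, against 45.9%. Matches of different motifs did not overlap in these entries. Such matches describe letters only and are not shown to be bound.

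The tables give CPM, reads scaled to the library total, for each exon, and these were summed per symbol. Distinct exons held between 9618849 and 25302206 reads per library. All listed exons, which form the authors' denominator, held between 13209167 and 34898845, so that 1 read was worth between 0.0287 and 0.0757 CPM. The targeted gene was checked first. Its deleted exons 2 to 7 held 193 and 173 reads in the control IdHPCs against 15 and 15 in *Pcgf1*-KO IdHPCs. In LMPPs these exons had 84 reads in 1 library labelled control (control 1) and none in the other (control 2). Of the libraries labelled *Pcgf1*-KO, the first had 76 and the second had 0. The reads on *Pcgf1* thus go against the label of 2 of the 4 LMPP libraries, labelled control 2 and *Pcgf1*-KO 1, and not against that of the other 2. LMPP values are therefore given by label and also side by side for the libraries with and without such reads, and the latter is a description without a test. The same division separates replicate numbers 1 and 2, so that the presence of these exons cannot be told apart from whatever else the numbers share. Markers of hematopoietic progenitors were read in both cell types. *Flt3* lay between 425 and 631 CPM in IdHPCs and between 366 and 440 CPM in LMPPs, and *Ptprc*, which encodes CD45, lay between 159 and 327 and between 225 and 264 CPM.

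The 9 genes differed widely in level. On the scale of CPM per kb of exon, the median over the 4 IdHPC libraries was highest for *Lmo2* (10.2) and fell over *Gfi1b* (4.65), *Epor* (0.987), *Tal1* (0.753), *Itga2b* (0.342), *Klf1* (0.272), *Gata2* (0.0903) and *Gata1* to *Pf4* (both 0). Neighbors in this order overlapped between libraries, other than *Gfi1b* and *Epor*, and *Klf1* and *Gata2*. In LMPPs the order of the medians was *Lmo2* (203), *Pf4* (87.5), *Gfi1b* (28.8), *Itga2b* (21.9), *Gata2* (20.4), *Tal1* (10.3), *Epor* (0.794), *Gata1* (0.725) and *Klf1* (0.243) CPM per kb. There the overlapping neighbors were *Gfi1b* with *Itga2b*, *Itga2b* with *Gata2*, and *Epor* with *Gata1*.

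**Figure D1:**
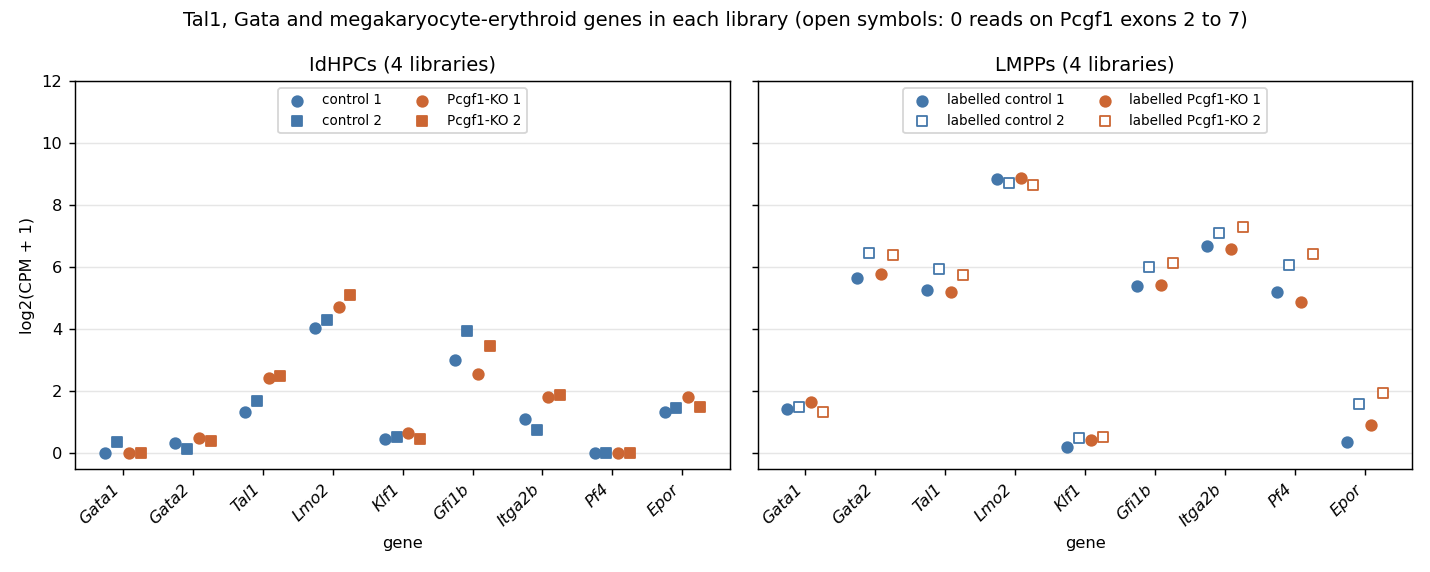
The level of each of the 9 genes (y axis, log2(CPM + 1)) in each of the 4 IdHPC and 4 LMPP libraries, colored by label, with open symbols for the LMPP libraries with 0 reads on *Pcgf1* exons 2 to 7. *Tal1*, *Lmo2*, *Itga2b*, *Epor* and *Gata2* of both *Pcgf1*-KO IdHPC libraries sit above both controls, *Gata2* with at most 12 reads per library. In LMPPs *Gata2*, *Tal1*, *Gfi1b*, *Itga2b*, *Pf4*, *Epor* and *Klf1* sit higher in both open symbols than in both filled ones, *Klf1* with at most 7 reads. Over all genes tested, 25.6% in IdHPCs and 26.7% in LMPPs were higher in these ways.

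Set beside each other, the tables of the 2 cell types differed most, among the 9 genes, for *Pf4*, *Gata2* and *Itga2b*. The tables were normalized separately and their libraries were made from different cells, so that these ratios are a description. *Gata2* (chr6:88143885-88157024, + strand, mm9) had 0.115 to 0.421 CPM in IdHPCs and 49.5 to 86.3 CPM in LMPPs, and the lowest LMPP library was 118 times the highest IdHPC library. The same ratio was 35.7 for *Itga2b*, 12.1 for *Lmo2*, 7.76 for *Tal1* and 2.86 for *Gfi1b*. *Pf4* (chr5:91201461-91202407, + strand) had 0 reads in all 4 IdHPC libraries, which allows up to 3 reads or 0.141 CPM in the shallowest of them, against 28.3 to 84.3 CPM in LMPPs, at least 200-fold higher in the lowest LMPP library. *Gata1* lay between 0 and 0.287 CPM in IdHPCs and between 1.51 and 2.13 CPM in LMPPs. *Klf1* and *Epor* overlapped between the cell types, with *Klf1* at 0.147 to 0.562 CPM over all 8 libraries. In bulk RNA, fewer cells of a type and less RNA per cell cannot be told apart.

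The IdHPC comparison asked which of these genes changed when PCGF1 was depleted. Of the 9 genes, 5 reached 1 CPM in some IdHPC library and were tested with limma on log2(CPM + 1), and 0 had an adjusted p under 0.05. Among all 12273 genes tested, 0.269% were called higher and 0.261% lower in *Pcgf1*-KO IdHPCs. At an unadjusted p under 0.05, 3 of the 5 were higher (*Tal1*, *Lmo2* and *Itga2b*), beside 9.17% of all genes, and 0 were lower, beside 5.33%. In 4 of the 5 both *Pcgf1*-KO libraries exceeded both controls, beside 25.6% of all genes, and in 0 did both fall below them, beside 21.3%. The median log2 fold change of the 5 was 0.74, beside 0.0056 over all genes tested.

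*Tal1* (chr4:114729031-114744360, + strand, mm9) had 1.50 CPM in control 1, 2.21 in control 2, 4.39 in *Pcgf1*-KO 1 and 4.66 in *Pcgf1*-KO 2 (49, 77, 125 and 99 reads). Both *Pcgf1*-KO libraries were above both controls, by a ratio between 1.99 and 3.11. With 2 libraries against 2, limma estimated a log2 fold change of 0.96 with a standard error of 0.29. The difference did not pass the threshold (limma, adjusted p = 0.164). Most *Tal1* reads stood on its 3′ exon, with 43 and 66 reads in the controls and 103 and 94 in the *Pcgf1*-KO libraries. The other 3 listed exons together held 6 and 11 reads in the controls, 22 in *Pcgf1*-KO 1 and 5 in *Pcgf1*-KO 2. On these exons *Pcgf1*-KO 2 lay at 0.235 CPM, between the controls at 0.184 and 0.315 CPM, whereas *Pcgf1*-KO 1 had 0.772 CPM. Over 9379 genes, *Pcgf1*-KO 2 carried 29.8% of reads on 3′ exons, while the other IdHPC libraries had between 24.6% and 26.4%, and the part of this in the *Tal1* value was not tested.

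**Figure D2:**
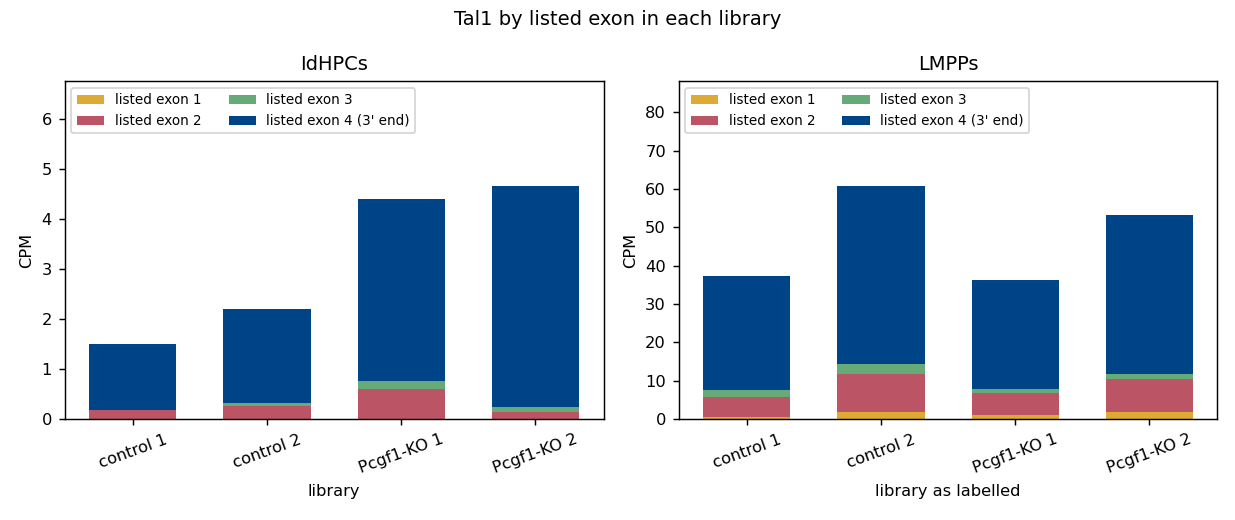
*Tal1* in CPM (y axis, on separate scales for IdHPCs and LMPPs) in each library, stacked by the 4 listed exons, with the exon at the 3′ end in dark blue. In *Pcgf1*-KO 2 of the IdHPCs 94 of 99 reads stand on that exon, and in LMPPs it holds between 76.4% and 79.6% of the reads.

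*Lmo2*, the bridging partner of TAL1 (chr2:103798143-103822035, + strand), stood at 15.5 and 18.8 CPM in control IdHPCs and at 25.5 and 33.4 CPM after *Pcgf1* deletion. The groups did not overlap, and the ratios lay between 1.36 and 2.15. On the log2 scale limma gave a difference of 0.74 with a standard error of 0.26, short of the threshold (adjusted p = 0.219). Here the exons other than the one at the 3′ end had the same order, with 10.5 and 11.4 CPM in the controls against 16.9 and 17.9 CPM.

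*Itga2b* (chr11:102314611-102331436, - strand) encodes the αIIb chain that pairs with the product of *Itgb3* on platelets. Control IdHPCs had 1.16 and 0.688 CPM and *Pcgf1*-KO IdHPCs 2.56 and 2.68 CPM (38, 24, 73 and 57 reads). The latter were higher by a ratio between 2.20 and 3.90. By limma this was a log2 fold change of 0.92 with a standard error of 0.30, which did not pass the threshold (adjusted p = 0.193). Over the 4 IdHPC libraries together, 26 of its 30 listed exons had reads. In *Pcgf1*-KO 2 no read stood on listed exons 20 to 30, those nearest the 5′ end, while the other IdHPC libraries had some there. In LMPPs every listed exon had reads in each library. At most 7.02% of the reads of a library stood on its 3′ exon.

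*Gfi1b* was not separated by genotype. Its values of 7.04 and 14.4 CPM in control and 4.95 and 9.98 CPM in *Pcgf1*-KO IdHPCs overlapped. Its limma log2 fold change was -0.46 with a standard error of 0.39 (adjusted p = 0.608). *Epor* had 1.53 and 1.78 CPM in control and 2.49 and 1.84 CPM in *Pcgf1*-KO IdHPCs. These groups did not overlap, and the log2 fold change of 0.25 was smaller than its standard error of 0.30 (limma, adjusted p = 0.738). It was 0.097 without *Pcgf1*-KO 1 and 0.40 without *Pcgf1*-KO 2.

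The remaining 4 genes were below the filter in IdHPCs. *Gata1* had 10 reads in control 2, on 2 of its 6 listed exons, and 0 reads in the other 3 libraries. *Gata2* showed 9 and 4 reads in control against 12 and 7 in *Pcgf1*-KO IdHPCs (0.276, 0.115, 0.421 and 0.329 CPM). *Klf1* showed 12 and 16 against 16 and 8 reads, and *Pf4* had none. None of these 4 genes was tested between the genotypes in IdHPCs.

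**Figure D3:**
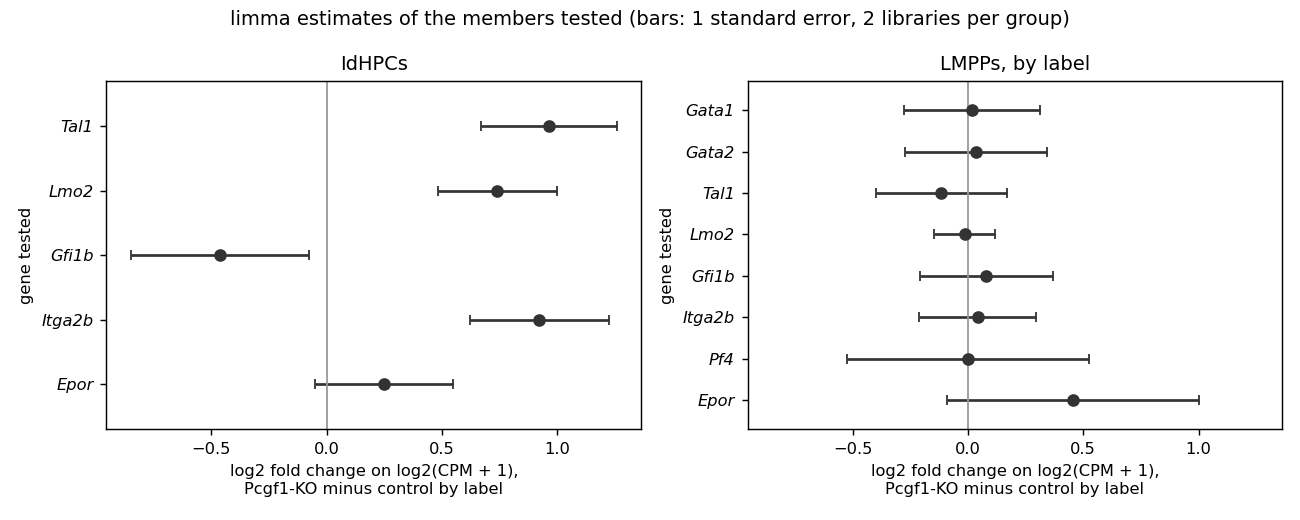
limma log2 fold changes on log2(CPM + 1), *Pcgf1*-KO minus control by label (x axis), of the genes tested in IdHPCs (5 genes) and LMPPs (8 genes), with bars of 1 standard error. *Tal1*, *Itga2b* and *Lmo2* lie furthest from 0 in IdHPCs at 0.96, 0.92 and 0.74, and in LMPPs every bar includes 0.

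The partners of these factors were expressed throughout in IdHPCs. All 15 listed partners (E proteins, LDB1 and its binding proteins, corepressors and the factors that bind beside TAL1) passed the filter, 0 were called in either direction, and their median log2 fold change was 0.03. The partners with the highest levels were *Ldb1* (371 and 321 CPM in control, 323 and 393 CPM in *Pcgf1*-KO IdHPCs), *Hdac1*, *Tcf3* and *Hdac2*. They had log2 fold changes of 0.05, -0.11, 0.05 and 0.09. At an unadjusted p under 0.05, 2 partners were higher (*Erg* and *Tcf4*), beside 9.17% of all genes, and 2 lower (*Fli1* and *Rcor1*), beside 5.33%. These partners, named after their values were seen, had log2 fold changes of 1.04, 0.51, -0.71 and -0.86 (limma, adjusted p between 0.114 and 0.335). *Erg*, an ETS factor, had 15.7 and 24.5 CPM in control against 47.0 and 36.4 CPM in *Pcgf1*-KO IdHPCs, a log2 fold change near that of *Tal1*. Without overlap, 5 partners were higher and 4 lower, beside the 25.6% and 21.3% of all genes given above. Of 14 paralogs of the 9 genes (other GATA, LMO, KLF, TAL and GFI1 factors), 9 were tested and 0 were called. Their median was 0.36, the value of *Gata4* itself. *Gata4* and *Gata3* reached 1 CPM only in *Pcgf1*-KO libraries and so passed the filter only where they were high. *Gata4* had 1.09 CPM in *Pcgf1*-KO 1 against 0.153, 0.258 and 0.141 CPM in control 1, control 2 and *Pcgf1*-KO 2. *Lyl1*, the closest relative of *Tal1*, had 52.9 and 38.7 CPM in control and 52.8 and 71.9 CPM in *Pcgf1*-KO IdHPCs, with overlapping groups. On the scale of CPM without correction for length, *Lyl1*, *Lmo4*, *Klf6* and *Klf4* were the highest paralogs, with log2 fold changes of 0.44, 0.03, 0.55 and 0.57.

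Genes of the mature lineages were mostly below the filter in IdHPCs. Of 23 erythroid genes 22 were found, 3 were tested (*Tfrc*, *Slc25a37* and *Rhd*), and 0 were called. *Slc25a37*, the mitochondrial iron importer, had 133 and 153 CPM in control and 70.9 and 67.7 CPM in *Pcgf1*-KO IdHPCs (limma log2 fold change -1.03, adjusted p = 0.0643). The erythroid genes *Slc4a1*, *Car1*, *Car2*, *Spna1*, *Hbb-bh1* and *Kel* had 0 reads in all IdHPC libraries. Of 18 megakaryocyte genes 5 were tested and 0 were called, with a median of 0.55. *Nfe2*, a transcription factor of megakaryocytes and erythroid cells, had 5.24 and 6.88 CPM in control and 10.5 and 24.7 CPM in *Pcgf1*-KO IdHPCs (limma log2 fold change 1.30, adjusted p = 0.131). *Gp1bb*, a chain of the von Willebrand factor receptor, had 1.75 and 2.75 CPM against 4.25 and 8.47 CPM (log2 fold change 1.14, adjusted p = 0.168). *Itgb3* had the opposite sign, with 14.2 and 29.6 CPM in control and 11.4 and 11.5 CPM in *Pcgf1*-KO IdHPCs (log2 fold change -0.79, adjusted p = 0.315). *Plek*, the highest of the list, had 13.1 and 27.8 CPM against 28.8 and 28.4 CPM (log2 fold change 0.55, adjusted p = 0.467). Of the 10 genes of erythropoietin and thrombopoietin signalling all were tested and 0 were called. The highest of them, *Socs2*, *Pim1*, *Cish* and *Stat5b*, had log2 fold changes of 0.12, -0.76, -0.15 and -0.41.

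**Figure D4:**
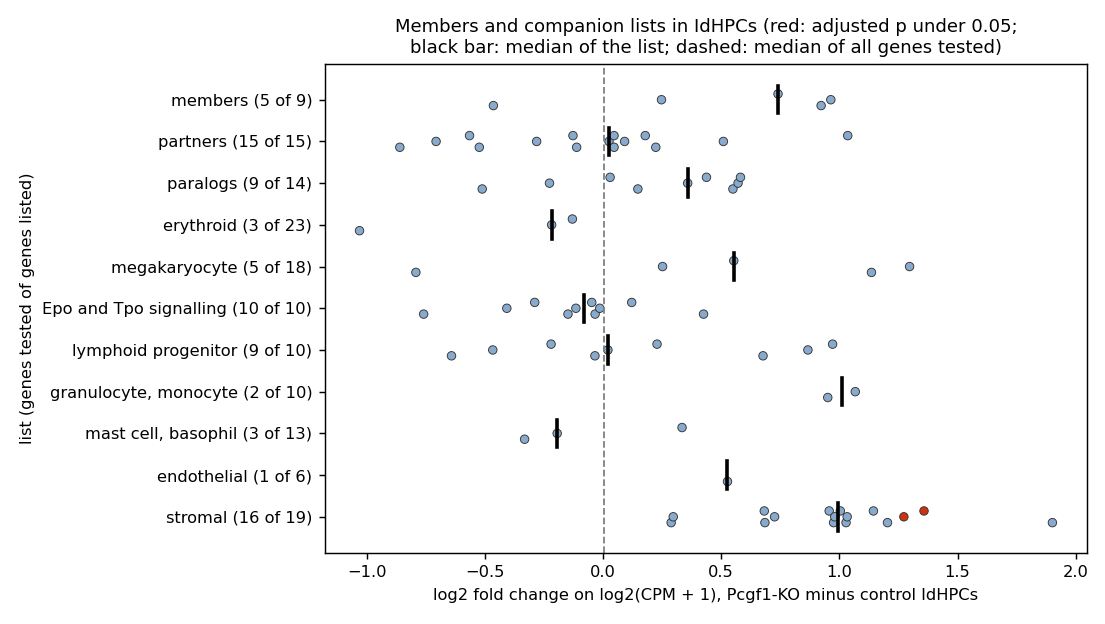
limma log2 fold changes in IdHPCs (x axis) of every tested gene of the 9-gene set and its companion lists, with black bars for list medians and a dashed line for the median of all genes tested. The stromal list lies to the right of 0 in all 16 tested genes, and the 2 red points, the genes with an adjusted p under 0.05, belong to it.

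Markers of other cells were measured in the same libraries. The 19 stromal markers summed to 3267 and 2714 CPM in the control IdHPCs and to 6824 and 5657 CPM in *Pcgf1*-KO IdHPCs, and all 16 that were tested had a positive log2 fold change (median 0.99). Of these, *Sparc* and *Col1a2*, which encode matrix proteins, were called, while *Dcn* and *Lum* had 0 reads. *Col1a1*, the highest of the list, had a log2 fold change of 1.03 and *Timp3* one of 0.29, and neither passed the threshold (limma, adjusted p = 0.0647 and 0.725). The part of feeder RNA in the values of *Tal1*, *Lmo2* and *Itga2b* was not tested. Granulocyte and monocyte markers summed to between 1.95 and 8.46 CPM over the IdHPC libraries, 10 markers in all with *Elane*, *S100a8*, *S100a9* and *Ngp* at 0. Both tested ones, *Lyz2* and *Mpo*, were higher in both *Pcgf1*-KO libraries than in both controls (log2 fold changes 1.07 and 0.95). Of all genes tested, 25.6% were higher in this way, and 0 of the 10 markers were called. *Prtn3* and *Csf1r* were below the filter. The 13 mast cell and basophil markers summed to between 18.8 and 24.0 CPM, 8 of them, *Cpa3* and *Fcer1a* included, were at 0, and 0 were called. The highest, *Tph1*, *Hpgds* and *Slc18a2*, had log2 fold changes of -0.33, 0.33 and -0.19. Of 6 endothelial markers 1 was tested, *Plvap*, and the other 5 were at 0. Of the 10 markers of LMPPs and lymphoid progenitors 9 were tested and 0 were called, with a median of 0.02. The highest were *Flt3*, *Ptprc*, *Notch1* and *Cd34*, with log2 fold changes of -0.22, -0.64, -0.03 and 0.97 (limma, adjusted p between 0.0856 and 0.963).

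By label, the LMPP comparison separated none of the 9 genes. Of the 8 tested (*Klf1* was below the filter) 0 were called, as in 0.0% of the 12153 genes tested in either direction, and at an unadjusted p under 0.05 limma had 2 genes (0.0165%) higher and 0 lower in the whole table. The labelled groups overlapped for all 9 genes, while 5.92% of all genes were higher and 6.3% lower without overlap. *Tal1* showed 37.3 and 60.8 CPM under the control label and 36.2 and 53.3 CPM under the *Pcgf1*-KO label (log2 fold change -0.11, standard error 0.28). *Gata2* had 49.5 and 86.3 CPM against 54.3 and 82.6 CPM (0.03, standard error 0.31). The other 6 log2 fold changes lay between -0.01 for *Lmo2* and 0.46 for *Epor*, and the adjusted p from limma was 0.99997 for each of the 8.

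The LMPP libraries were then set side by side by their reads on *Pcgf1* exons 2 to 7. In 6 of the 8 tested genes both libraries without these reads were higher than both libraries with them, and by at least 1.25-fold in all 6. Over all genes tested, 26.7% were higher in this way and 10.4% by at least 1.25-fold. Of the 8, 1 was lower in both libraries without the reads, beside 29.9% of all genes, and by less than 1.25-fold, a limit that 7.1% of all genes exceeded. *Epor* is 1 of the 6 and reached 1 CPM in the libraries without the reads alone, so that it could enter these counts as higher but not as lower. Among genes that reached 1 CPM on both sides, a limit chosen after seeing the data, 5 of 7 were higher, all by at least 1.25-fold, and 1 was lower, beside 25.7%, 9.05% and 29.6% of 11578 genes. Each pair of libraries compared here also differs in replicate number.

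Among the factors, *Gata2* had 86.3 and 82.6 CPM in the libraries without the reads, those labelled control 2 and *Pcgf1*-KO 2 in this order. In those with the reads, labelled control 1 and *Pcgf1*-KO 1, it had 49.5 and 54.3 CPM, and later pairs of values keep this order. The 4 ratios between a library without and a library with the reads lay between 1.52 and 1.74. For *Tal1*, with 60.8 and 53.3 CPM without against 37.3 and 36.2 CPM with the reads, the ratios lay between 1.43 and 1.68. On 3 of the 4 listed *Tal1* exons both libraries without the reads also had the higher read numbers, for example 171 and 111 against 72 and 82 on the second. On the third exon, 45 and 20 against 23 and 17 reads overlapped. *Gfi1b* had 63.1 and 68.7 CPM without against 41.3 and 42.4 CPM with the reads, ratios between 1.49 and 1.66.

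Of the 8, *Lmo2* alone was lower in both libraries without the reads, with 420 and 405 CPM against 461 and 469 CPM, ratios between 0.863 and 0.910. *Gata1* overlapped, with 1.84 and 1.51 CPM without and 1.70 and 2.13 CPM with the reads, from 20 to 32 reads per library. *Klf1* had 7 and 6 reads without and 2 and 5 with them, too few for a ratio.

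The granule and surface genes were also higher in both libraries without the reads. *Pf4* had 66.6 and 84.3 CPM in the libraries without the reads and 35.9 and 28.3 CPM in those with them, ratios between 1.86 and 2.98. *Itga2b* had 136 and 155 CPM against 103 and 95.7 CPM, ratios between 1.32 and 1.62. *Epor* had 2.01 and 2.88 CPM against 0.295 and 0.892 CPM, with ratios between 2.26 and 9.75 that rest on 35, 38, 4 and 13 reads. Having passed the filter only where it was high, this receptor gene could enter the counts above only as higher.

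**Figure D5:**
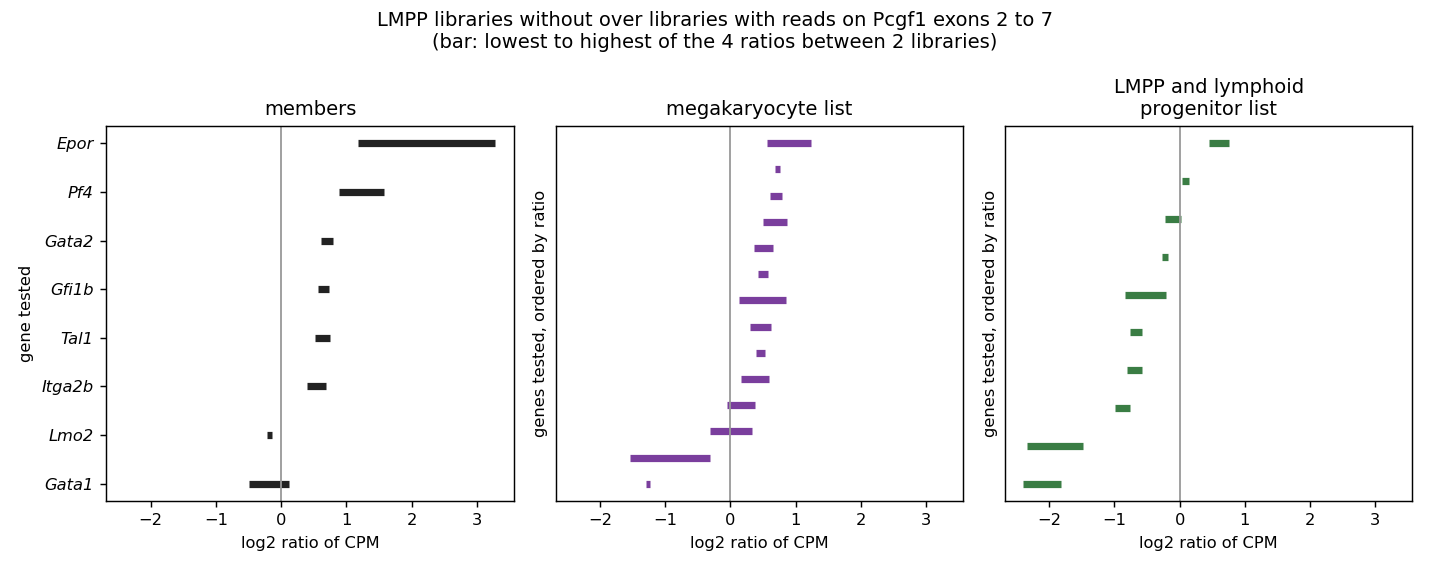
For LMPPs, the log2 ratio of CPM (x axis) between a library without and a library with reads on *Pcgf1* exons 2 to 7, drawn for each tested gene as a bar from the lowest to the highest of the 4 ratios, in 3 panels, with gene names in the first only. Of the 9-gene set 6 bars lie above 0 and 1 below, and of the megakaryocyte list 10 of 14 above and 2 below. Of the lymphoid progenitor list 7 of 10 bars lie below 0 and 2 above. Over all genes tested, 26.7% were higher and 29.9% lower in this way. *Epor*, 1 of the 6, reached 1 CPM only in the libraries without the reads and could count only as higher.

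The same description was made for the companion lists, and all counts of this kind stand beside the 26.7% of all genes that were higher and the 29.9% that were lower. Of 18 megakaryocyte genes 14 were tested in LMPPs and 0 were called by label. Of the 14, 10 were higher in both libraries without the reads and 2 were lower. By at least 1.25-fold 7 were higher, beside 10.4% of all genes, and 1 was lower, beside 7.1%. *Plek*, a platelet protein kinase C substrate, had 220 and 215 CPM without against 148 and 161 CPM with the reads. *Nfe2* had 127 and 136 CPM against 96.7 and 93.5 CPM, and *Itgb3* had 70.8 and 65.2 CPM against 45.1 and 50.9 CPM. *Ppbp*, a platelet chemokine, had 24.2 and 23.5 CPM against 13.9 and 15.4 CPM. The 2 lower genes were *Selp* and *Mmrn1*. *Selp* had 4.78 and 4.62 CPM without against 11.3 and 11.2 CPM with the reads, and *Mmrn1* had 1.50 and 0.681 CPM against 1.99 and 1.85 CPM. Over the 14 genes the median log2 ratio was 0.37 to 0.45, depending on the pair of libraries, beside -0.02 to -0.01 over all genes tested.

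Of the erythroid list 9 of 22 genes were tested, 0 were called by label, 4 were higher in both libraries without the reads and 1 was lower, beside 26.7% and 29.9% of all genes. *Car2*, a carbonic anhydrase, had 86.7 and 92.0 CPM without against 52.8 and 52.2 CPM with the reads, whereas *Tfrc*, the transferrin receptor, had 230 and 220 CPM against 309 and 316 CPM. *Slc25a37* and *Hemgn* overlapped. Besides *Car2*, the higher genes were *Hbb-b1*, *Hbb-b2* and *Spna1*. The globin genes *Hbb-b1* and *Hbb-b2* carried identical reads in every library, 38 and 50 without against 19 and 27 with the reads on *Pcgf1*, so that the same reads count here as 2 genes. *Spna1*, the red cell spectrin α chain, had 1.73 and 1.67 CPM against 0.737 and 0.480 CPM and likewise passed the filter only where it was high. *Slc4a1*, *Car1* and *Hbb-bh1* had 0 reads. Of the partners 5 of 15 were higher and 5 lower, shares near those of all genes, and 0 were called by label. *Tcf3* and *Ldb1* were among those lower. By at least 1.25-fold, 1 partner was higher and 1 lower. The lower one was *Tcf4*, an E protein, with 148 and 150 CPM without against 202.6 and 195.3 CPM with the reads, ratios between 0.730 and 0.770. The higher one was *Zfpm1*, which encodes the GATA1 cofactor FOG1 and was named after its values were seen, with 99.1 and 96.1 CPM without against 43.3 and 49.1 CPM with the reads, ratios between 1.96 and 2.29. *Cbfa2t3*, the corepressor ETO2, overlapped. Of the paralogs 9 were tested, 0 were called, 3 were higher and 3 lower. *Gfi1*, the paralog of *Gfi1b*, had 18.1 and 16.8 CPM without against 8.85 and 10.8 CPM with the reads, while the highest paralogs, *Lyl1*, *Lmo4* and *Klf6*, overlapped or, in *Lmo4*, were lower (70.4 and 74.9 against 82.5 and 82.2 CPM). Of the erythropoietin and thrombopoietin signalling genes 3 of 10 were higher and 3 lower, and 0 were called. *Stat5b* had 196 and 180 CPM without against 127 and 143 CPM, and *Stat5a* had 130 and 124 CPM against 89.4 and 94.7 CPM. *Pim1*, a target of STAT5, was lower with 86.0 and 79.9 CPM against 95.7 and 99.0 CPM, and *Csf2rb* overlapped.

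Markers of other cells were read in the same way. Of the 10 markers of LMPPs and lymphoid progenitors 2 were higher in both libraries without the reads and 7 were lower, again beside 26.7% and 29.9% of all genes, as for the counts of the other marker lists that follow. These counts include *S100a9*, *Cma1*, *Emcn*, *Col5a1* and *Fbn1*, which reached 1 CPM on only 1 side. *Kit*, the SCF receptor, had 384 and 352 CPM without against 228 and 258 CPM with the reads, and *Flt3* had 371 and 366 CPM against 419 and 440 CPM. *Cd34* had 758 and 800 CPM against 736 and 721 CPM, and *Ptprc* overlapped. Of 7 tested granulocyte and monocyte markers 0 were higher and 5 lower, *Mpo*, *Prtn3* and *Csf1r* among them, and *Ctsg* overlapped. The 13 mast cell and basophil markers, of which 6 were tested and only *Mcpt4* was at 0, summed to 111 and 112 CPM without against 94.1 and 85.9 CPM, and 2 were higher and 2 lower. *Slc18a2*, a vesicular monoamine transporter, held 59.8 and 53.5 CPM of this sum without against 21.5 and 23.1 CPM with the reads. Leaving it out, a step chosen after its values were seen, the other 12 summed to 50.7 and 58.3 CPM without against 72.6 and 62.8 CPM with the reads, the opposite order. *Cpa3* and *Hdc* were lower and *Mcpt8* overlapped. Of 3 tested endothelial markers 0 were higher and 2 lower (*Tie1* and *Plvap*), *Emcn* overlapped, and *Cldn5* was at 0. The 19 stromal markers summed to between 56.8 and 70.0 CPM in LMPPs, 6 were tested, 2 were higher and 2 lower (*Mmp2* and *Tagln*), and *Col3a1*, *Col6a1*, *Dcn*, *Lum* and *Postn* were at 0. *Pdgfrb* had 56.8 and 48.8 CPM without against 35.1 and 35.8 CPM with the reads, and *Timp3* overlapped. By label, 0 genes of these 5 marker lists were called. The shares of reads on 3′ exons, 22.1% and 23.7% without against 24.4% and 22.6% with the reads, overlapped. The part of a different mixture of cells in the member values was not tested.

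Likeness to *Tal1* was measured as Pearson's r over the 8 libraries of log2(CPM + 1), after the mean of each cell type was subtracted, and ranked over 4195 genes. The genes most like it were *Sgk1* (r = 0.99), *Kazald1* (0.99), *Clip2* (0.99), *Srd5a1* (0.98) and *Tmem8* (0.98). *Sgk1*, a serum- and glucocorticoid-regulated kinase, had 6.37 and 7.36 CPM in control and 12.5 and 12.9 CPM in *Pcgf1*-KO IdHPCs, and in LMPPs 3.45 and 3.18 CPM without against 2.29 and 2.13 CPM with the reads on *Pcgf1* exons 2 to 7. Of the other 8 genes described here, *Itga2b* was nearest (0.87), followed by *Lmo2* (0.69), *Gata2* (0.67), *Epor* (0.60), *Klf1* (0.50), *Pf4* (0.49), *Gfi1b* (0.10) and *Gata1* (-0.37). *Gata1*, *Gata2*, *Klf1* and *Pf4* lay below 1 CPM in every IdHPC library and so were not among the genes ranked. They had at most 16 reads per IdHPC library, so that the IdHPC part of their r comes from values at or near the floor. These r describe 8 libraries that share 2 tables and, in LMPPs, the division by replicate number, and carry no test.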

How the data were processed

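Poly(A) RNA was prepared with NEBNext kits and sequenced on an Illumina HiSeq. The methods name HISAT2, Rsubread and edgeR, the submitters' processing notes name TopHat2 (2.0.13) and edgeR, and the build is mm9 in both. The authors deposited CPM per exon in 2 tables, 1 per cell type, each with 284716 exons under 23284 symbols. Exons with the reads of the exon before them under the same symbol in all 8 libraries were counted once, and the rest were summed per symbol. The authors' denominator, which sums all listed exons, was kept. Division by the CPM of 1 read gave whole numbers for 100% of values within a tolerance of 1e-06. Whether a read spanning exons was counted on each is not given in the sources used here. If so, exon sums are larger than the true number of reads. As no molecular identifiers were used, floors cover only the error of counting.

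The 2 tables were fitted apart, because each was normalized on its own, by limma (3.58.1, R 4.3.3) with a mean-variance trend on log2(CPM + 1), 2 libraries against 2, over genes that reached 1 CPM in 1 or more libraries, with Benjamini-Hochberg adjustment and a threshold of 0.05. Fold changes on this scale understate changes of low genes. The script was tested on simulated data. Alternatives were a pseudocount of 0.1, other filters, median-ratio rescaling, no trend, the replicate number as a block, each library left out, edgeR (4.0.16; quasi-likelihood test and exactTest, the study's test) and DESeq2 (1.42.0) on recovered reads, sums over all listed exons and, chosen after seeing the data, sums that omit each gene's 3′ exon. The 9 genes and all lists were chosen with earlier results of these data known. Named genes were the 9 genes, *Pcgf1*, the 5 genes most like *Tal1* (among genes with an SD of at least 0.25) and, per list and table, the called genes and the 4 with the highest mean CPM, of which those below the filter enter the counts alone. Other genes named, such as those at 0, were picked after their values were seen. Coordinates and exon lengths are those of NCBIM37.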

Additional observations from a re-analysis of the deposited data

How the results depend on the processing

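Of the 5 genes tested in IdHPCs, *Tal1* alone passed the threshold in any alternative, with the replicate number as a block (log2 fold change 0.96, adjusted p = 0.0487 from limma). Its log2 fold change lay between 0.78 and 1.29 and its adjusted p between 0.0487 and 0.778 over 14 alternatives. Without the exon at the 3′ end it was below the filter and gave no value. *Lmo2* lay between 0.55 and 0.93 and *Itga2b* between 0.74 and 1.51 over 15 alternatives each. Without 1 library, the log2 fold change of *Gfi1b* lay between -0.93 and 0.0071 and changed sign without control 2. The labels give the replicate numbers without saying what they share. Deviations of same-numbered libraries from their group means correlated with r = 0.147 over 12273 genes in IdHPCs and 0.705 over 12153 genes in LMPPs, and with 2 pairs this does not establish a pairing. With the block, 484 genes were called higher and 185 lower in *Pcgf1*-KO IdHPCs and 3 higher in LMPPs by label, against 33, 32 and 0, and the block changed no other call among the 9 genes.

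The IdHPC counts also changed with other choices. Higher and lower calls were 0 and 0 with no filter, 451 and 159 with edgeR's exactTest, and 341 and 153 with DESeq2. They were 59 higher after median-ratio rescaling, 77 with edgeR's quasi-likelihood test and 19 with sums over all listed exons. Without the exon at the 3′ end 0 were higher and 3 lower. With 1 library left out, between 0 and 237 were higher and between 14 and 581 lower. The lowest counts came without control 2 and the highest without *Pcgf1*-KO 1, while 120 were higher without *Pcgf1*-KO 2. A lone library is assumed there to vary like the other group.

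By label in LMPPs, 0 of the 8 tested genes passed the threshold in any alternative, and the direction depended on single libraries. With 1 library left out, the log2 fold changes lay between -0.14 and 0.18 for *Gata1*, -0.36 and 0.43 for *Gata2*, -0.46 and 0.23 for *Tal1*, -0.12 and 0.091 for *Lmo2*, -0.26 and 0.42 for *Gfi1b*, -0.30 and 0.39 for *Itga2b*, -0.77 and 0.77 for *Pf4*, and -0.15 and 1.06 for *Epor*. *Pf4* was also reversed with a pseudocount of 0.1 (-0.0020) and without the exon at the 3′ end (-0.018). The causes were not tested. At this depth, 3 reads were worth up to 0.141 CPM in IdHPCs and 0.227 CPM in LMPPs. *Gata1*, *Gata2*, *Klf1* and *Pf4* in IdHPCs and *Klf1* in LMPPs had at most 16 reads per library, were below the filter of 1 CPM and were not tested.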
